A study of Mus musculus with 74 samples.

Results

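The 9 genes examined here mark or drive the switch between epithelial and mesenchymal cells, and were taken by name from the 37620 genes of the tables: the epithelial genes Cdh1 and Epcam, the mesenchymal genes Cdh2 and Vim, and the transcription factors Snai1, Snai2, Zeb1, Zeb2 and Twist1. All 9 were found, and all 9 passed the filter on low counts in each comparison, so that no member was left untested. Within Nanog/Otx2 cells Snai2 passed it only through the condition in which it was highest. They were followed in 35 RNA-seq libraries of mouse embryonic stem (ES) cells. The study asked how activation of the endogenous Nanog gene, a transcription factor of pluripotency, alters the response of the cells to the loss of LIF, the cytokine that holds them undifferentiated. Nanog SunTag cells carried a doxycycline (Dox)-inducible dCas9 with repeated epitopes, an antibody fragment fused to the VP64 activator that binds these epitopes, the rtTA transactivator and a guide RNA to the Nanog promoter. Nanog/Otx2 SunTag cells carried in addition a guide RNA to the promoter of Otx2, a factor of the exit from the naive state. Both sets of cells, controls without Dox included, were thus engineered E14Tg2a derivatives, and each set was made of 1 clone from each of the founder clones C1 and C2.

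SunTag cells were cultured for 3 days with LIF alone, with LIF and Dox, without both, or without LIF and with Dox, which gave in this order 3, 2, 3 and 3 libraries of Nanog cells and 3, 4, 4 and 4 libraries of Nanog/Otx2 cells. LIF was used at 10 ng/mL and Dox at 1 µg/mL. 44iN cells, which lack functional Nanog and carry a Dox-inducible Nanog transgene, were sampled in the presence of Dox, at 24 h of Dox withdrawal, and in a long-term (LT) culture kept without Dox under G418 (2 libraries each). Wild-type Tg2a cells, grown with FCS and LIF on gelatine, gave 3 libraries. Libraries are named below by clone and number as in the sample titles. The titles give both C1 libraries of Nanog cells without LIF and with Dox the number 1, and the second is called C1-1b, whereas the column names of the tables number them 1 and 2. The column names also differ from the titles for 3 further libraries. There, C1-1 of Nanog cells with LIF and Dox and C2-1 of Nanog/Otx2 cells with LIF alone end in 2. C2-2 of Nanog cells without LIF and with Dox ends in 1.

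An epithelial cell adheres to its neighbours through E-cadherin (Cdh1) and is attached to them further by Epcam, whereas mesenchymal cells use N-cadherin (Cdh2) and the intermediate filament protein vimentin (Vim). The Snail (Snai1, Snai2), Zeb (Zeb1, Zeb2) and Twist (Twist1) factors are known to repress epithelial genes during the epithelial-mesenchymal transition, the first of these families by binding E-box motifs at promoters such as that of Cdh1. Mouse ES cells are pluripotent epithelial-like cells that express E-cadherin, and they pass from a naive to a formative state when LIF is removed.

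The promoter windows of Epcam and Vim are shown because the 2 genes moved in opposite directions when LIF was removed, and because the letters bound by Snail and Zeb factors, CACCTG and its reverse complement CAGGTG, can be looked for in them. They are the 250 bases before the transcription start (RefSeq, build GRCm38.p6, plus strand, 5′ to 3′), at chr17:87635729-87635978 for Epcam and chr2:13574061-13574310 for Vim, and capitals mark CACCTG or CAGGTG.
Epcam: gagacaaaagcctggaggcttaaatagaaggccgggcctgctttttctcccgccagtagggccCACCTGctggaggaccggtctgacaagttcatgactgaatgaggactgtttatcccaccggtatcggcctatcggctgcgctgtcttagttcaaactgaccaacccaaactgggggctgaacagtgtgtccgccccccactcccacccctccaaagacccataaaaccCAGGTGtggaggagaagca
Vim: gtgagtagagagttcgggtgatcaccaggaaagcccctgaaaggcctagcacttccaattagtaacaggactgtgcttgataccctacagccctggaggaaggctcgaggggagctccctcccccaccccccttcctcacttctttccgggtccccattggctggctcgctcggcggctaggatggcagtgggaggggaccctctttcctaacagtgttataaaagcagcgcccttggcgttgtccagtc
The Epcam window held the motif 2 times, with first bases at -187 and -19 relative to the start, and the Vim window did not hold it. The Snai1 window held it once, and those of Twist1 and of the 4 starts of Zeb2 did not, against 17.2% of the 32851 promoter windows of the same length. The table used holds no promoter for Cdh1, Cdh2, Snai2 and Zeb1, and a match of these letters is a description of the window, not a binding site.

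In the mm9 build, with the gencode vM1 gene models, Cdh1 (ENSMUSG00000000303) lies on the plus strand at chr8:109127251-109194146, Epcam (ENSMUSG00000045394) on the plus strand at chr17:88035319-88050446 and Vim (ENSMUSG00000026728) on the plus strand at chr2:13495554-13504453. Snai1 (ENSMUSG00000042821) lies at chr2:167363695-167368314, Snai2 (ENSMUSG00000022676) at chr16:14705945-14709488, Zeb2 (ENSMUSG00000026872) on the minus strand at chr2:44839154-44972915, and Twist1 (ENSMUSG00000035799) at chr12:34642536-34644682. Cdh2 (ENSMUSG00000024304) and Zeb1 (ENSMUSG00000024238) are both genes of chromosome 18. Values are those of the whole gene, over all of its exons. Antisense transcripts overlap Zeb1, Zeb2 and Cdh2 in this annotation, and the study's methods give the counting as strand-specific.

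The libraries held between 6107512 and 92244655 estimated counts (median 29298745), and levels are given as normalised counts, which the authors made by dividing the estimated counts by a size factor for each library. Nanog itself followed the labels, with 21940.5 to 29487 normalised counts in Nanog cells with LIF alone and 75226 to 93813 with LIF and Dox. It stood at 2234 to 8484 after LIF removal and 45041 to 55641 after LIF removal with Dox, and at 228 to 276 in long-term 44iN cells. In Nanog/Otx2 cells mean Nanog was 19480 with LIF alone, 44065 with LIF and Dox, 4425 without both and 39530 with Dox alone. In the same order mean Otx2 was 952, 3509, 4074 and 7173 in Nanog/Otx2 cells. It was 784, 237, 4238 and 2450 in Nanog cells. Mitochondrially encoded genes took 6.99% to 12.9% of the counts in Nanog cells and 3.58% to 5.98% in Nanog/Otx2 cells. Libraries of Nanog cells with and without LIF come from different name series in the labels, and those of Nanog/Otx2 cells from yet another, so that LIF and series cannot be told apart in the former, nor guide and series between them. 44iN cells with Dox and at 24 h share a further series, and long-term 44iN cells and Tg2a cells each have their own. Cell line or culture and series cannot be told apart among these either. Nothing in the labels says that libraries of a clone came from separate cultures, and p-values then measure the spread between these libraries, which may be technical.

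**Figure D1:**
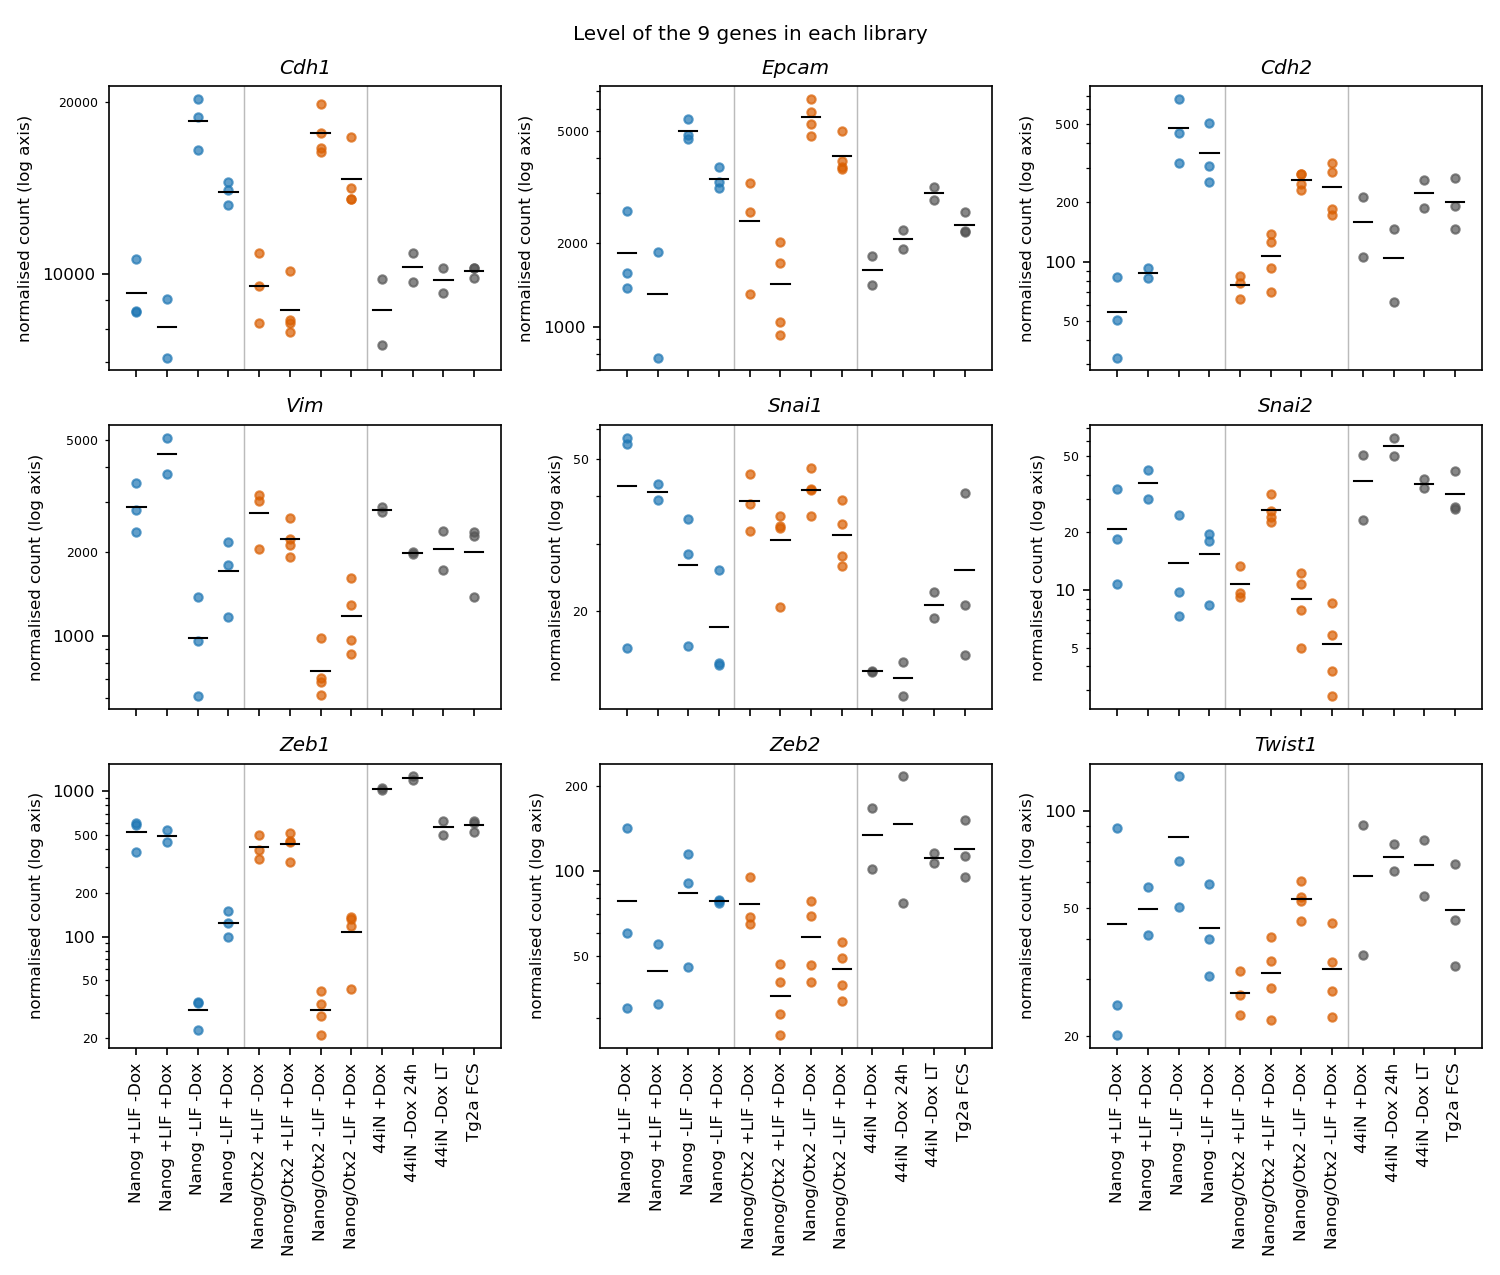
Normalised counts of the 9 genes in each of the 35 libraries (log axis), by condition, in Nanog cells (blue), Nanog/Otx2 cells (orange) and 44iN and Tg2a cells (grey); bars mark condition means. Zeb1 had the widest span, from a mean of 31.1 in Nanog cells without LIF and Dox to 1229 in 44iN cells 24 h after Dox removal.

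LIF withdrawal in the absence of Dox raised both epithelial genes and lowered Zeb1 and Vim, while the mesenchymal cadherin Cdh2 rose with the epithelial genes. In Nanog cells 5 of the 9 genes passed the threshold (edgeR quasi-likelihood test, Benjamini-Hochberg adjusted p-value under 0.05 over all genes tested), 3 higher and 2 lower, against 41.5% of the 15624 genes tested (20.2% higher, 21.3% lower). In Nanog/Otx2 cells 6 of 9 passed, 4 higher and 2 lower, against 49.8% of 15609 genes (24.6% higher, 25.2% lower). With such shares over all genes, the number of members called is close to the background, and the results lie in the size and direction of each gene. The 9 genes had a median log2 fold change of 0.11 in Nanog cells and 0.02 in Nanog/Otx2 cells, beside -0.05 and -0.01 for all genes tested. The share of mitochondrially encoded counts was also separate between these groups. It was 8.48% to 10.9% with LIF and 6.99% to 8.02% without it in Nanog cells, and 4.82% to 5.75% and 3.58% to 4.67% in Nanog/Otx2 cells. Its part in the results below was not tested.

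Cdh1, the adherens junction cadherin of epithelia, stood at 10619.8, 8589 and 8607 normalised counts in Nanog cells with LIF alone (C1-1, C2-1 and C2-2) and at 18876, 16503 and 20276 without LIF (C1-1, C1-2 and C2-1). Nanog/Otx2 cells held 10882, 9513 and 8203 with LIF (C1-1, C1-2 and C2-1) and 19873, 16656, 17665 and 16351 without (C1-1, C1-2, C2-1 and C2-2). Every library without LIF was above every library with LIF, and the rise was 1.97-fold in Nanog cells (log2 fold change 0.98 ± 0.15, SE, edgeR adjusted p = 0.00046) and 1.81-fold in Nanog/Otx2 cells (0.85 ± 0.12, edgeR adjusted p = 4.4e-05). Cdh1 was abundant in both states, so the rise was on an already high level.

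Epcam, a homophilic adhesion molecule of epithelia, was at 2584, 1378 and 1552 normalised counts with LIF and at 5517, 4859 and 4688 without it in Nanog cells. It was at 3273, 2570.2 and 1310.1 against 6534, 5847, 5312 and 4798 in Nanog/Otx2 cells. The groups did not overlap, and Epcam rose 2.69-fold (1.43 ± 0.30, edgeR adjusted p = 0.0032) and 2.27-fold (1.19 ± 0.29, edgeR adjusted p = 0.0029). Among libraries with LIF those of clone C1 had more Epcam than those of clone C2 in both lines. In Nanog cells most libraries with LIF alone were of C2 and most without LIF and Dox of C1, so that clone and LIF were not balanced. Across the alternative fits other than left-out libraries, the clone as a block among them, the log2 fold change there was 1.31 to 1.48 and stayed called.

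Cdh2, the cadherin of mesenchymal and neural cells, also rose. Its libraries in Nanog cells were at 83.0, 50.3 and 32.5 normalised counts with LIF and at 449, 673 and 316 without. In the Nanog/Otx2 line it was at 84.5, 77.6 and 64.8 with LIF and 279, 247, 279.8 and 233 without. The rise was 8.85-fold in Nanog cells (3.15 ± 0.41, edgeR adjusted p = 0.00015) and 3.27-fold in Nanog/Otx2 cells (1.71 ± 0.26, edgeR adjusted p = 8.1e-05), with no overlap between groups. Whether the 2 rises differ was not tested. Per kb of exon, Cdh2 remained far below Cdh1, at 0.321% of the Cdh1 level with LIF and 1.4% without it in Nanog cells, and at 0.457% and 0.836% in Nanog/Otx2 cells (geometric means over libraries). The log2 ratio of Cdh2 to Cdh1 thus rose by 2.13 in Nanog cells when LIF was removed, with a range of 1.77 to 2.46 when each of the 6 libraries was left out in turn.

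Vim, the intermediate filament gene of mesenchyme, went the other way. It stood at 2348, 3505 and 2809 normalised counts with LIF against 958, 1374 and 609.7 without in Nanog cells. It stood at 2039, 3042 and 3176 against 688, 981, 614 and 710.1 in Nanog/Otx2 cells. The groups were separate, and Vim was 2.98-fold lower without LIF in the former (-1.58 ± 0.30, edgeR adjusted p = 0.0015) and 3.76-fold lower in the latter (-1.91 ± 0.21, edgeR adjusted p = 4e-06). Per kb, Vim was at 141% of the Epcam level with LIF and at 16.2% without it in Nanog cells, and at 106% and 11.5% in Nanog/Otx2 cells.

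Zeb1, a zinc-finger repressor of Cdh1, had the largest change of the 9 genes in both lines. In Nanog cells it was at 383, 605 and 582 normalised counts with LIF and at 22.8, 34.9 and 35.6 without. The Nanog/Otx2 libraries were at 342, 496 and 393 against 21.1, 42.3, 28.3 and 34.5. It was 17.2-fold lower in Nanog cells (-4.10 ± 0.29, edgeR adjusted p = 2.8e-06) and 13.9-fold lower in Nanog/Otx2 cells (-3.79 ± 0.34, edgeR adjusted p = 4.2e-07). The lowest library with LIF, at 342, thus lay well above the highest without it, at 42.3. A second identifier carries the name Zeb1 (ENSMUSG00000093585), with a median of 5.91% of the normalised counts of both and at most 38.6%, and adding its counts changed no call of Zeb1.

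Of the other factors, Zeb2, Snai1, Snai2 and Twist1, only Twist1 in Nanog/Otx2 cells was called. Twist1, a basic helix-loop-helix factor of mesoderm, was at 26.8, 31.7 and 23.1 normalised counts with LIF and at 52.5, 60.8, 54.1 and 45.6 without it in Nanog/Otx2 cells, a rise of 1.84-fold (0.88 ± 0.27, edgeR adjusted p = 0.012) that was not called without the C1-1 library with LIF (0.84, edgeR adjusted p = 0.051). In Nanog cells Twist1 was at 88.4, 20.1 and 25.0 with LIF and at 70.0, 128 and 50.4 without, and the groups overlapped (0.93 ± 0.56, edgeR adjusted p = 0.2). The C1-1 library of Nanog cells with LIF stood apart for several of the factors. Besides its 88.4 of Twist1 it held 16.1 of Snai1, where the C2 libraries held 57.0 and 54.9, and 142 of Zeb2, where they held 60.3 and 32.5. Without this library Twist1 was called in Nanog cells (1.87, edgeR adjusted p = 0.0092), and the 5 other calls of that comparison stood. It was the sole C1 library with LIF alone. That fit therefore set C2 libraries with LIF alone against libraries of both clones without LIF, and does not separate clone from LIF.

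Zeb2, the paralogue of Zeb1, had a log2 fold change of 0.11 ± 0.50 in Nanog cells (edgeR adjusted p = 0.87) and of -0.46 ± 0.28 in Nanog/Otx2 cells (edgeR adjusted p = 0.2). In the latter it was called lower when clone and number were added as a block (-0.59, edgeR adjusted p = 0.028). With the numbers of the column names in that block it was not called (-0.52, edgeR adjusted p = 0.067). Snai1, the founding Snail factor of the transition, gave -0.75 ± 0.48 in Nanog cells and 0.02 ± 0.24 in Nanog/Otx2 cells, and its paralogue Snai2 gave -0.70 ± 0.59 and -0.42 ± 0.38, none of them called. These factors were low throughout, with between 2.80 and 62.4 normalised counts of Snai2 and between 12.0 and 57.0 of Snai1 over the 35 libraries.

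**Figure D2:**
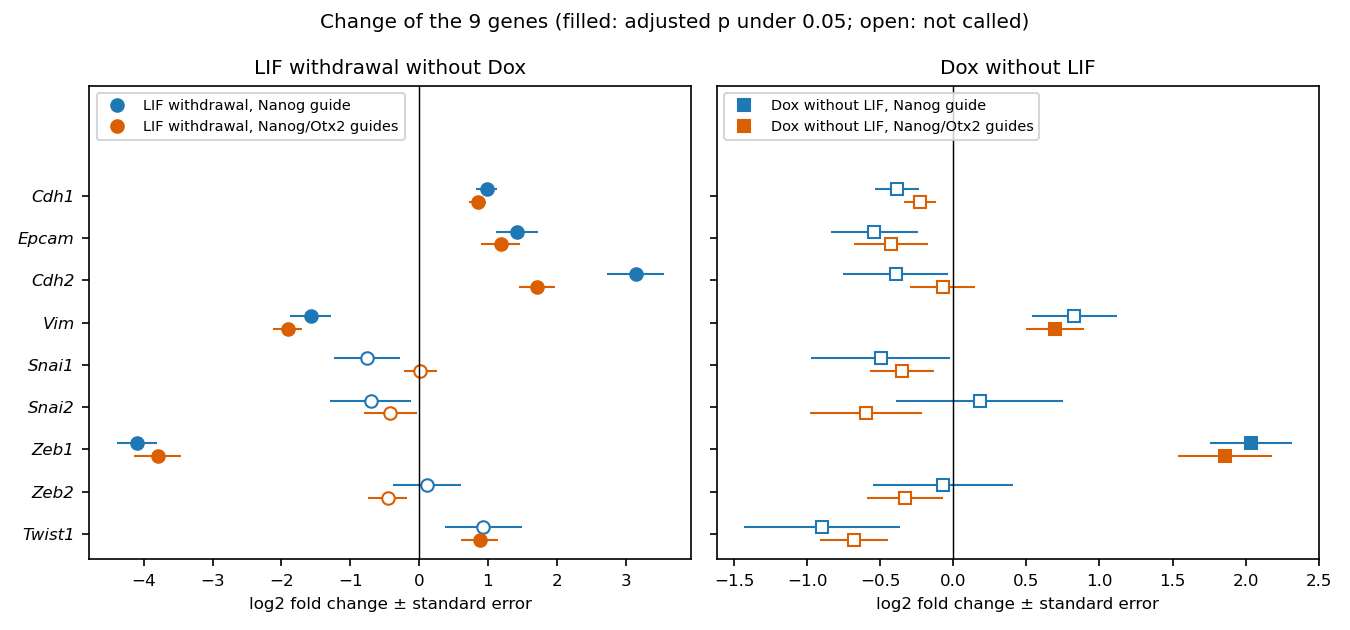
Log2 fold changes of the 9 genes with their standard errors on LIF withdrawal without Dox (left) and with Dox in the absence of LIF (right), in Nanog cells (blue) and Nanog/Otx2 cells (orange); filled symbols have an edgeR adjusted p under 0.05. Zeb1 lies at -4.10 and -3.79 on the left and at 2.04 and 1.86 on the right; both panels share the libraries without LIF and Dox.

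The second comparison asked what Dox did in the absence of LIF. It shares the libraries without LIF and Dox with the comparison above, so opposite signs of a gene in the 2 comparisons are not independent of each other, and the values of each are given side by side. Zeb1 was called higher in both lines, and the other members had smaller values. In Nanog cells 1 of 9 genes was called, against 5.14% of all genes tested (3.6% higher, 1.54% lower), and in Nanog/Otx2 cells 2 of 9 were called, against 17.3% (11.2% higher, 6.15% lower). The 9 genes had median log2 fold changes of -0.39 and -0.33, beside 0.0018 and -0.0065 for all genes tested.

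Zeb1 stood at 98.6, 123 and 151 normalised counts in Nanog cells without LIF and with Dox (C1-1, C1-1b and C2-2), all above the 22.8 to 35.6 without Dox and all below the 383 to 605 with LIF alone. In Nanog/Otx2 cells it stood at 43.8, 118, 132 and 136 (C1-1, C1-2, C2-1 and C2-2), where the C1-1 library lay close to the highest library without Dox at 42.3. Zeb1 was 4.1-fold higher with Dox in Nanog cells (2.04 ± 0.28, edgeR adjusted p = 0.0017) and 3.63-fold higher in Nanog/Otx2 cells (1.86 ± 0.32, edgeR adjusted p = 0.0011). Of the libraries compared, the share of mitochondrially encoded counts also differed with Dox in Nanog cells, at 6.99% to 8.02% without and 9.88% to 10.4% with Dox, and its part in the result was not tested. Those of Nanog/Otx2 cells overlapped, at 3.58% to 4.67% without and 4.03% to 4.93% with Dox.

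Cdh1 with Dox and without LIF was at 14050.0, 13206 and 14497 normalised counts in Nanog cells and at 17418, 13561, 14123 and 13536 in Nanog/Otx2 cells. In Nanog cells every Dox library was below every library without Dox, yet the change was not called (-0.39 ± 0.15, edgeR adjusted p = 0.19), and it was called when only the 6 libraries compared were fitted (-0.38, edgeR adjusted p = 0.043). Of the Nanog/Otx2 libraries C1-1 at 17418 overlapped the group without Dox (-0.23 ± 0.11, edgeR adjusted p = 0.17). With clone and number as a block, 5 of the 9 genes were called in Nanog/Otx2 cells, against 33.4% of all genes tested in that fit, with Cdh1 (-0.23, edgeR adjusted p = 0.0069), Epcam (-0.43, edgeR adjusted p = 0.036) and Twist1 (-0.70, edgeR adjusted p = 0.021) lower in addition to Zeb1 and Vim higher.

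Epcam was at 3726, 3296 and 3129 normalised counts with Dox in Nanog cells and at 5016, 3902, 3731 and 3681 in Nanog/Otx2 cells, all above the libraries with LIF alone. Its change with Dox was not called (-0.54 ± 0.30, edgeR adjusted p = 0.38, and -0.43 ± 0.26, edgeR adjusted p = 0.28), but was when only the libraries compared were fitted, the 6 of Nanog cells (-0.53, edgeR adjusted p = 0.015) or the 8 of Nanog/Otx2 cells (-0.42, edgeR adjusted p = 0.048). Cdh2 was at 308, 510.1 and 254 in Nanog cells (-0.40 ± 0.36, edgeR adjusted p = 0.65) and at 319.6, 287, 173 and 185 in Nanog/Otx2 cells (-0.07 ± 0.22, edgeR adjusted p = 0.86), and both ranges overlapped those without Dox.

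Vim was at 1788, 2156 and 1173 normalised counts with Dox and without LIF in Nanog cells (0.83 ± 0.29, edgeR adjusted p = 0.14) and at 1286, 1608, 864 and 970.0 in Nanog/Otx2 cells. In the latter it was called 1.62-fold higher (0.70 ± 0.20, edgeR adjusted p = 0.026), although its ranges overlapped. Leaving out any of the libraries C1-1, C2-1 or C2-2 without Dox or C1-1 or C1-2 with Dox ended the call of Vim (0.51 to 0.68, edgeR adjusted p of 0.057 to 0.097), as did a fit of the 8 libraries compared alone (0.70, edgeR adjusted p = 0.053). Twist1 was at 44.7, 33.9, 22.8 and 27.6 normalised counts with Dox in Nanog/Otx2 cells, all below the 45.6 to 60.8 without Dox, and was not called (-0.68 ± 0.23, edgeR adjusted p = 0.059). DESeq2 called it (-0.69, adjusted p = 0.041), as did edgeR without C1-1 with Dox (-0.88, edgeR adjusted p = 0.026). In Nanog cells Twist1 was at 40.1, 59.2 and 30.7 with Dox against 70.0, 128 and 50.4 without. These ranges overlapped, and it was not called there (-0.90). Snai1, Snai2 and Zeb2 lay between -0.60 and 0.18 in both lines and were not called.

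A direct comparison of cells without LIF and with Dox against cells with LIF alone showed how far the genes stood from the starting state. In Nanog cells 4 of 9 genes were called, against 28.1% of all genes tested, and in Nanog/Otx2 cells 6 of 9, against 45.3%. Zeb1 was 4.19-fold and 3.82-fold lower than with LIF alone (-2.07 ± 0.26, edgeR adjusted p = 0.00026, and -1.93 ± 0.31, edgeR adjusted p = 0.00017), and Cdh2 was 6.73-fold and 3.11-fold higher (2.75 ± 0.41, edgeR adjusted p = 0.00075, and 1.64 ± 0.26, edgeR adjusted p = 0.00017). Cdh1 was 1.51-fold and 1.54-fold higher (0.59 ± 0.15, edgeR adjusted p = 0.014, and 0.62 ± 0.12, edgeR adjusted p = 0.00081). Neither cadherin nor Zeb1 was thus back at its level with LIF.

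Epcam was 1.85-fold and 1.69-fold higher (0.89 ± 0.30, edgeR adjusted p = 0.046, and 0.76 ± 0.28, edgeR adjusted p = 0.039), with calls that rested on single libraries. In Nanog cells the call of Epcam was lost without any 1 of the 6 libraries lacking LIF, or without C2-1 or C2-2 with LIF alone (0.71 to 0.98, edgeR adjusted p of 0.0503 to 0.15), and that of Cdh1 without C2-1 or C2-2 with LIF alone (0.54 in both, edgeR adjusted p of 0.053 and 0.057). The call of Epcam in Nanog/Otx2 cells was lost without C1-2 or C2-1 with LIF alone or without C1-1, C1-2 or C2-1 with Dox (0.49 to 0.81, edgeR adjusted p of 0.052 to 0.14). Vim was 2.32-fold lower in Nanog/Otx2 cells (-1.21 ± 0.21, edgeR adjusted p = 0.00032). In Nanog cells it was called lower with the clone as a block only (-0.75 ± 0.29, edgeR adjusted p = 0.073, and -0.96, edgeR adjusted p = 0.018, with the block).

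Of the factors, Zeb2 was lower in Nanog/Otx2 cells (-0.79 ± 0.28, edgeR adjusted p = 0.035), a call lost without C1-2 with LIF alone or without C1-1 or C2-1 with Dox (-0.57 to -0.74, edgeR adjusted p of 0.072 to 0.19), as well as without the filter on low counts (-0.76, edgeR adjusted p = 0.072). Snai2 was not called in that line (-1.01 ± 0.41, edgeR adjusted p = 0.054) but was with the block (-1.27, edgeR adjusted p = 0.016), without C1-1 lacking both LIF and Dox (-1.01, edgeR adjusted p = 0.035) or without C2-2 with Dox (-1.43, edgeR adjusted p = 0.017). Snai1 in Nanog cells had a value of -1.25 ± 0.48 (edgeR adjusted p = 0.07) and was called with DESeq2 (-1.25, adjusted p = 0.04998) or without the C1-1 library with LIF alone (-1.57, edgeR adjusted p = 0.012). That library was the sole C1 library with LIF alone, so the last fit does not separate clone from condition.

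With LIF present, few of the 9 genes were called with Dox. In Nanog cells 0 of the 9 genes were called by edgeR, against 0.563% of all genes tested, 0 had an unadjusted p under 0.05, DESeq2 called 0, and their log2 fold changes lay between -0.77 and 0.72. Zeb1 was at 444 and 537 normalised counts with LIF and Dox (-0.10 ± 0.28, edgeR adjusted p = 0.9) and Cdh2 at 82.1 and 93.3 (0.71 ± 0.45, edgeR adjusted p = 0.5). Vim, at 5099 and 3785, lay above the libraries with LIF alone without being called (0.61 ± 0.32, edgeR adjusted p = 0.41). In this comparison Nanog itself was not called by edgeR (1.74 ± 0.39, edgeR adjusted p = 0.079) and was by DESeq2 (1.76, adjusted p = 0.0022), with no filter on low counts (1.73, edgeR adjusted p = 0.017), with the clone as a block (1.65, edgeR adjusted p = 0.021) or without C2-1 lacking both LIF and Dox (1.76, edgeR adjusted p = 0.014). With 2 libraries in this group, values of this size are not resolved. The mitochondrial shares were also separate, at 12.2% and 12.9% with LIF and Dox against 8.48% to 10.9% with LIF alone, and their part was not tested. In Nanog/Otx2 cells 2 of 9 genes were called, against 22.9% of all genes tested (12.9% higher, 10% lower).

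Snai2 in Nanog/Otx2 cells was at 24.0, 22.6, 31.8 and 25.95 normalised counts with LIF and Dox against 13.4, 9.63 and 9.26 with LIF alone, and was 2.36-fold higher (1.24 ± 0.36, edgeR adjusted p = 0.024). Zeb2 was at 26.1, 46.7, 30.9 and 40.2 against 68.4, 95.2 and 64.8, and was 2.14-fold lower (-1.10 ± 0.29, edgeR adjusted p = 0.013). Snai2 passed the filter on low counts in this line only through the libraries with LIF and Dox, where it was highest. Neither gene's groups overlapped, but both calls rested on single libraries. Without C1-2 with LIF alone both were lost (Snai2 1.10, edgeR adjusted p = 0.13, and Zeb2 -0.88, edgeR adjusted p = 0.098). Snai2 was also lost without C1-1 with LIF alone (1.46, edgeR adjusted p = 0.0503) or C2-1 with Dox (1.13, edgeR adjusted p = 0.063), and with no filter on low counts (1.25, edgeR adjusted p = 0.061). With clone and number as a block 4 of the 9 genes were called, against 41% of all genes tested, with Epcam lower (-0.66, edgeR adjusted p = 0.006) and Cdh2 higher (0.59, edgeR adjusted p = 0.023) besides. Without the block Epcam gave -0.76 ± 0.28 (edgeR adjusted p = 0.061), and was called by DESeq2 (-0.74, adjusted p = 0.036), without C2-1 with LIF alone (-1.03, edgeR adjusted p = 0.008) or without C1-1 with LIF and Dox (-0.99, edgeR adjusted p = 0.023). Without the block Cdh2 gave 0.46 ± 0.26 (edgeR adjusted p = 0.22), and Zeb1 gave 0.09 ± 0.30 and Vim -0.29 ± 0.21.

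The difference between the Dox effects without and with LIF was tested as an interaction. For Zeb1 it was 2.14 ± 0.40 in Nanog cells (edgeR adjusted p = 0.022), where 1 of 9 genes was called against 1.93% of all genes tested. It was 1.77 ± 0.44 in Nanog/Otx2 cells (edgeR adjusted p = 0.019), where 3 of 9 were called against 9.7%. In Nanog cells the call was lost in 6 of the 11 fits without 1 library, those without C1-1 or C2-1 with LIF and Dox, C2-1 or C2-2 with LIF alone, C1-1 without both, and C1-1b (1.95 to 2.33, edgeR adjusted p of 0.051 to 0.091). It was lost in the Nanog/Otx2 line in the fit without C1-2 with LIF alone (1.58, edgeR adjusted p = 0.069).

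The 2 other calls in Nanog/Otx2 cells were Vim (0.99 ± 0.29, edgeR adjusted p = 0.043), which rose with Dox in the absence of LIF and gave -0.29 in its presence, and Snai2 (-1.84 ± 0.53, edgeR adjusted p = 0.039), which rose with Dox in the presence of LIF and gave -0.60 in its absence. Both were fragile. Vim was called without C1-1 with LIF alone, C1-2 with LIF and Dox, C1-2 without both, or C2-1 or C2-2 with Dox alone, and was lost without any 1 of the other 10 libraries (0.80 to 0.99, edgeR adjusted p of 0.067 to 0.13). Snai2 was called without C1-2 with LIF and Dox, C1-1 without both or C2-2 with Dox alone, was lost without any 1 of the other 12 (-1.62 to -2.07, edgeR adjusted p of 0.051 to 0.12), and was not called by DESeq2 (-1.88, adjusted p = 0.055). With the block 4 of 9 were called, against 21.8% of all genes tested, Zeb2 being the added gene (0.91, edgeR adjusted p = 0.042). With the numbers of the column names in the block Zeb2 was not called (0.84, edgeR adjusted p = 0.079) and Twist1 was (-0.99, edgeR adjusted p = 0.047). Without the filter on low counts neither Vim (0.96, edgeR adjusted p = 0.053) nor Snai2 (-1.88, edgeR adjusted p = 0.085) was called.

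Between the lines, cells without LIF and with Dox differed in 41% of the 16210 genes tested, and in 1 of the 9 members. Snai2 was 2.85-fold lower in Nanog/Otx2 than in Nanog cells (-1.51 ± 0.47, edgeR adjusted p = 0.014), at 2.80, 5.84, 3.81 and 8.55 normalised counts against 8.36, 19.7 and 18.1, ranges that overlap at their edge. The former are only 3, 5, 3 and 13 estimated counts, and all lie under the 10 normalised counts of the filter. The mitochondrial shares of the libraries compared were separate, at 4.03% to 4.93% against 9.88% to 10.4%, and their part in the result was not tested. The call was lost without C1-1b (-1.28, edgeR adjusted p = 0.066) or C2-2 (-1.36, edgeR adjusted p = 0.051) of Nanog cells or C1-1 of Nanog/Otx2 cells (-1.29, edgeR adjusted p = 0.051). With a replicate block 7981 of the 16210 genes tested were called. Cdh2 (-0.56, edgeR adjusted p = 0.033) and Vim (-0.55, edgeR adjusted p = 0.045) were then called lower in addition (without the block -0.64 ± 0.29, edgeR adjusted p = 0.084, and -0.60 ± 0.25, edgeR adjusted p = 0.059). Both were also called without C2-2 of Nanog cells with Dox (-0.82, edgeR adjusted p = 0.047, and -0.80, edgeR adjusted p = 0.023). Vim was called, too, without C2-1 of Nanog cells lacking both LIF and Dox (-0.60, edgeR adjusted p = 0.04) or C1-2 of Nanog/Otx2 cells with Dox (-0.78, edgeR adjusted p = 0.022). A difference between the lines in the Dox effect without LIF was called by edgeR for 0 of the 9 genes, against 0.0308% of all genes tested, with 0 members at an unadjusted p under 0.05 and 0 called by DESeq2. For Zeb1 the difference was -0.23 ± 0.46 (edgeR adjusted p = 0.95), an error that leaves room for a sizeable difference in either direction.

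The 44iN cells were followed when Nanog was lost in the presence of LIF, and no change of the 9 genes was called. The edgeR fit at 24 h called no gene at all, Nanog and Otx2 included. Mean Nanog was 15880 normalised counts with Dox and 722 at 24 h, and mean Otx2 was 195 and 1574. The lack of calls at 24 h thus does not show that the members did not respond. Zeb1 was highest in these cells, at 1049 and 1022 normalised counts with Dox, 1259.9 and 1198 at 24 h after its removal and 626 and 499 in long-term culture, while Tg2a cells held 522, 604 and 625. The Zeb1 libraries with Dox and at 24 h thus lay above all others of the series, and the long-term libraries overlapped those of Tg2a cells. Vim was at 2877 and 2762 with Dox and at 1994 and 1967 at 24 h, and Cdh1 at 9796 and 7491 against 10876 and 9675.

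Between 44iN cells with Dox and at 24 h after its removal edgeR called 0 of the 9 genes, against 0% of the 14376 genes tested, with 1023 genes, among them 1 member, at an unadjusted p under 0.05, and DESeq2 called 0 members. Vim gave 0.61 ± 0.19 (edgeR adjusted p = 0.55), Zeb1 -0.15 ± 0.21 and Cdh1 -0.16 ± 0.23. Without each library in turn, 61 to 3413 genes were called in all, the lone library of a group being assumed to vary like the other group. With the shared replicate number as a block 13.3% of genes were called, Vim (edgeR adjusted p = 0.016) among them. Long-term 44iN cells compared with Tg2a cells had 0 members called by edgeR and 0 by DESeq2, against 8.61% of 14937 genes, with 0 members at an unadjusted p under 0.05 and log2 fold changes between -0.40 and 0.40. The count over all genes, 1286, was 19 to 2618 without each library in turn. Cdh1 gave -0.13 ± 0.14, Zeb1 -0.13 ± 0.20 and Epcam 0.30 ± 0.15 (edgeR adjusted p = 0.23), the libraries of Epcam being separate at 2850.2 and 3158 against 2568, 2194 and 2177. The mitochondrial shares of long-term and Tg2a libraries were separate too, at 6.84% in each long-term library against 7.59% to 9.57%, and their part was not tested.

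Across the 12 conditions the genes spanned very different ranges. The highest condition mean exceeded the lowest 39.5-fold for Zeb1, 10.7-fold for Snai2, 8.68-fold for Cdh2, 5.94-fold for Vim, 4.28-fold for Epcam, 4.07-fold for Zeb2, 3.19-fold for Snai1, 3.04-fold for Twist1 and 2.3-fold for Cdh1. The lowest mean of Snai2, 5.25 in Nanog/Otx2 cells without LIF and with Dox, lay under the 10 normalised counts of the filter. When conditions were ordered by mean, most neighbours overlapped: of the 11 neighbouring pairs 4 were separate for Zeb1, 1 each for Cdh1, Vim and Snai1, and 0 for the other 5 genes. For Zeb1 the order fell into 44iN at 24 h (1229 ± 43.8, SD, n = 2), 44iN with Dox (1036 ± 19.5, n = 2), then the 6 other conditions with LIF from 584 ± 54.7 (Tg2a, n = 3) to 410.5 ± 78.3 (Nanog/Otx2 with LIF alone, n = 3), then Dox without LIF (124 ± 26.2, n = 3, and 107 ± 43.1, n = 4), then neither (31.5 ± 9.02, n = 4, and 31.1 ± 7.21, n = 3). The separate pair of Cdh1 lay between the 4 conditions without LIF (means of 13918 to 18552) and the 8 with it (8083 to 10275).

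Per kb of exon, Cdh1 was the most abundant of the 9 genes in each condition of Nanog cells without Dox, at 2027 ± 255 (SD, n = 3) with LIF and 4056 without, followed by Vim (1237) and Epcam (901) with LIF and by Epcam (2462) and Vim (420.0) without it. Zeb1 was the most abundant factor with LIF at 53.9 per kb, above Twist1 at 27.5 ± 23.6 and Snai1 at 26.3 ± 14.2, and the least abundant without LIF at 3.20 per kb, when Twist1 was at 51.2. Levels of the bulk cultures do not tell whether fewer cells expressed a gene or each cell held less of its RNA.

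Over the 35 libraries, log2 levels of Cdh1 followed those of Epcam (Pearson r = 0.93) and opposed those of Zeb1 (r = -0.91) and Vim (r = -0.87). Epcam likewise opposed Zeb1 (r = -0.81), Vim followed Zeb1 (r = 0.80), and Cdh2 followed Cdh1 (r = 0.75). Snai1 was near unrelated to Cdh1 (r = 0.04), as was Zeb2 (r = -0.06). The libraries fall into conditions with and without LIF and share clones and name series, so that these coefficients are descriptions.

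**Figure D3:**
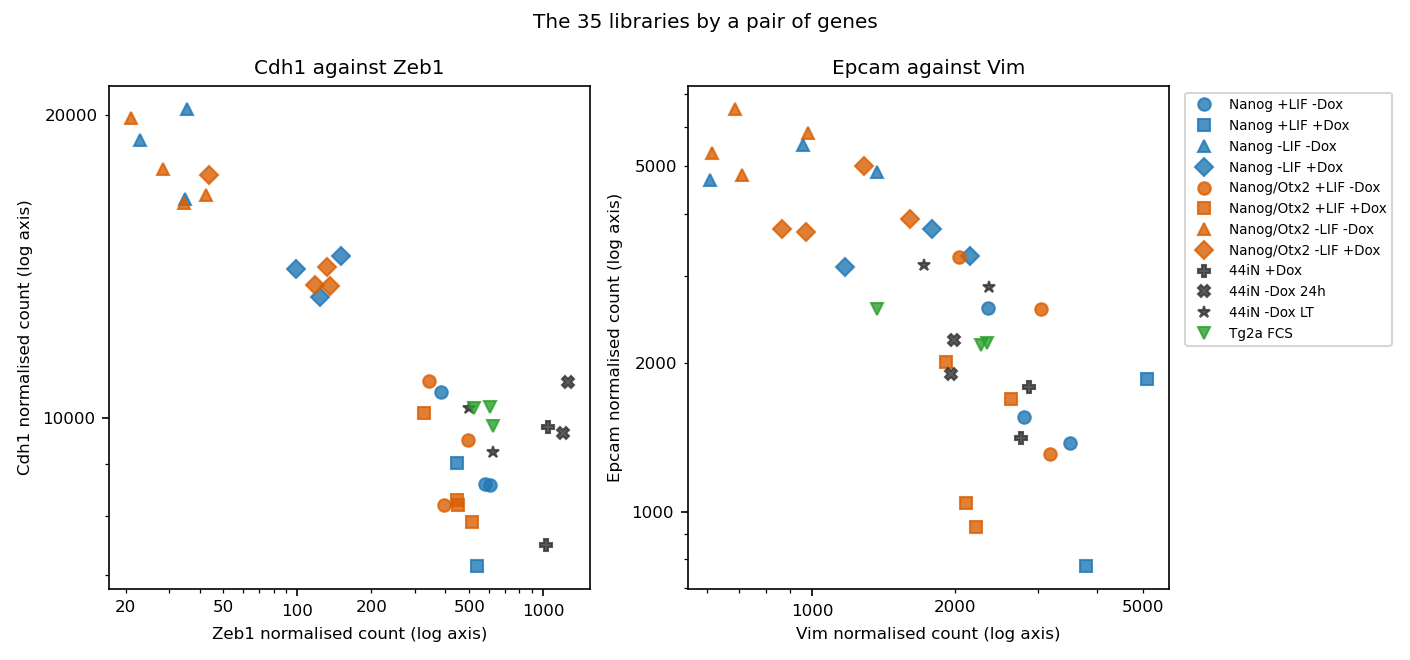
The 35 libraries by normalised count of Zeb1 and Cdh1 (left) and of Vim and Epcam (right), on log axes, with 1 symbol for each condition. Libraries without LIF and Dox lie at low Zeb1 and high Cdh1, libraries with LIF at high Zeb1 and low Cdh1. Those without LIF and with Dox lie between them, apart from a Nanog/Otx2 library at 43.8 of Zeb1 and 17418 of Cdh1.

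The genes compared in pattern were those of the 12846 whose mean reached 100 normalised counts in 1 condition or more, less the member itself. Those with the pattern most like Zeb1 over the 35 libraries were Tfcp2l1, a factor of the naive state (r = 0.982), Jam2 (r = 0.974) and Brp44l (r = 0.973). Cdh1 was most like Dnmt3b, the de novo DNA methyltransferase of the formative state (r = 0.95), D930015E06Rik (r = 0.95) and Pdpn (r = 0.94), and Epcam was most like Pdpn (r = 0.94), Enpp2 (r = 0.94) and Dnmt3b (r = 0.93). Cdh2 was most like Shroom4 (r = 0.93), Cdcp1 (r = 0.92) and Rasef (r = 0.92), and Vim most like Gm867 (r = 0.91), Pzp (r = 0.90) and Sdhaf1 (r = 0.89). Snai2, Zeb2 and Twist1 had weaker likenesses, led by Commd3 for Snai2 (r = 0.86), Zbtb1 for Zeb2 (r = 0.86) and Snx9 for Twist1 (r = 0.80). Of the 27 genes so found, 3 for each member, 7 were again among the first 3 by Spearman's rho.

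Genes that work with the 9 members were counted by lists. LIF withdrawal gave a call for 41.5% of all genes in Nanog cells and 49.8% in Nanog/Otx2 cells, and no list was tested against these shares. Of 32 other junction proteins and keratins of epithelia, 21 were called higher on LIF withdrawal and 2 lower in Nanog cells (median log2 fold change 1.36, beside -0.05 for all genes tested), and 21 higher and 1 lower in Nanog/Otx2 cells (median 1.28, beside -0.01). Claudin 7, a tight junction strand protein, rose from a mean of 44.3 to 674 normalised counts in Nanog cells (Cldn7, 3.96 ± 0.36, edgeR adjusted p = 1.1e-05), and the epithelial trafficking GTPase Rab25 (3.77 ± 0.52) and the serine protease Prss8 (3.72 ± 0.44) rose with it. In Nanog/Otx2 cells Cldn7 (3.32 ± 0.57), the tricellular junction protein Marveld2 (3.21 ± 0.20) and keratin 18 (Krt18, 3.05 ± 0.24) had the largest rises. Epithelial regulators were mixed. The splicing factor Esrp1 rose (3.70 ± 0.78 and 2.26 ± 0.53), and Klf5 (-2.41 ± 0.20 and -3.36 ± 0.16) and Grhl3 (-2.45 ± 0.28 and -3.07 ± 0.15) fell, with 6 of 10 higher and 3 lower in Nanog cells and 5 and 3 in Nanog/Otx2 cells.

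Mesenchymal genes other than the members moved in both directions on LIF withdrawal, with 12 of 27 higher and 8 lower in Nanog cells (median 0.46) and 11 and 8 in Nanog/Otx2 cells (median 0.29). The actin-binding protein transgelin (Tagln, 4.25 ± 0.36 and 3.36 ± 0.45) and the intermediate filament protein nestin (Nes, 3.66 ± 0.38 and 2.63 ± 0.47) rose, and the matrix protein Tgfbi fell (-3.69 ± 0.57 and -2.50 ± 0.55). Of 11 other transcription factors of the transition 5 were higher and 3 lower in Nanog cells and 5 and 2 in Nanog/Otx2 cells, with the dominant-negative helix-loop-helix factors Id2 (2.38 ± 0.29 and 1.93 ± 0.32) and Id3 (2.22 ± 0.43 and 1.52 ± 0.35) among those that rose. Of the other cadherins 6 of 11 were higher and 0 lower in Nanog cells, and 4 of 12 higher and 2 lower in Nanog/Otx2 cells, Cdh10 (2.91 ± 0.66 and 2.89 ± 0.32) rising in both.

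Of the cytoplasmic partners of cadherins 5 of 17 were higher and 2 lower in Nanog cells and 7 and 4 in Nanog/Otx2 cells, with vinculin (Vcl, 1.09 ± 0.15 and 0.76 ± 0.14) rising in both. Of the TGF-beta axis, which can induce the transition, 7 of 17 were higher and 1 lower in Nanog cells and 8 and 4 in Nanog/Otx2 cells, with the SMAD antagonist Skil rising (1.89 ± 0.33 and 1.22 ± 0.18). Corepressors and stability regulators of Snail and Zeb proteins had medians near 0 (0.05 and -0.01), with 3 of 15 higher and 2 lower in Nanog cells and 6 and 5 in Nanog/Otx2 cells. The kinase Pak1 rose in both (1.44 ± 0.25 and 1.57 ± 0.15).

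**Figure D4:**
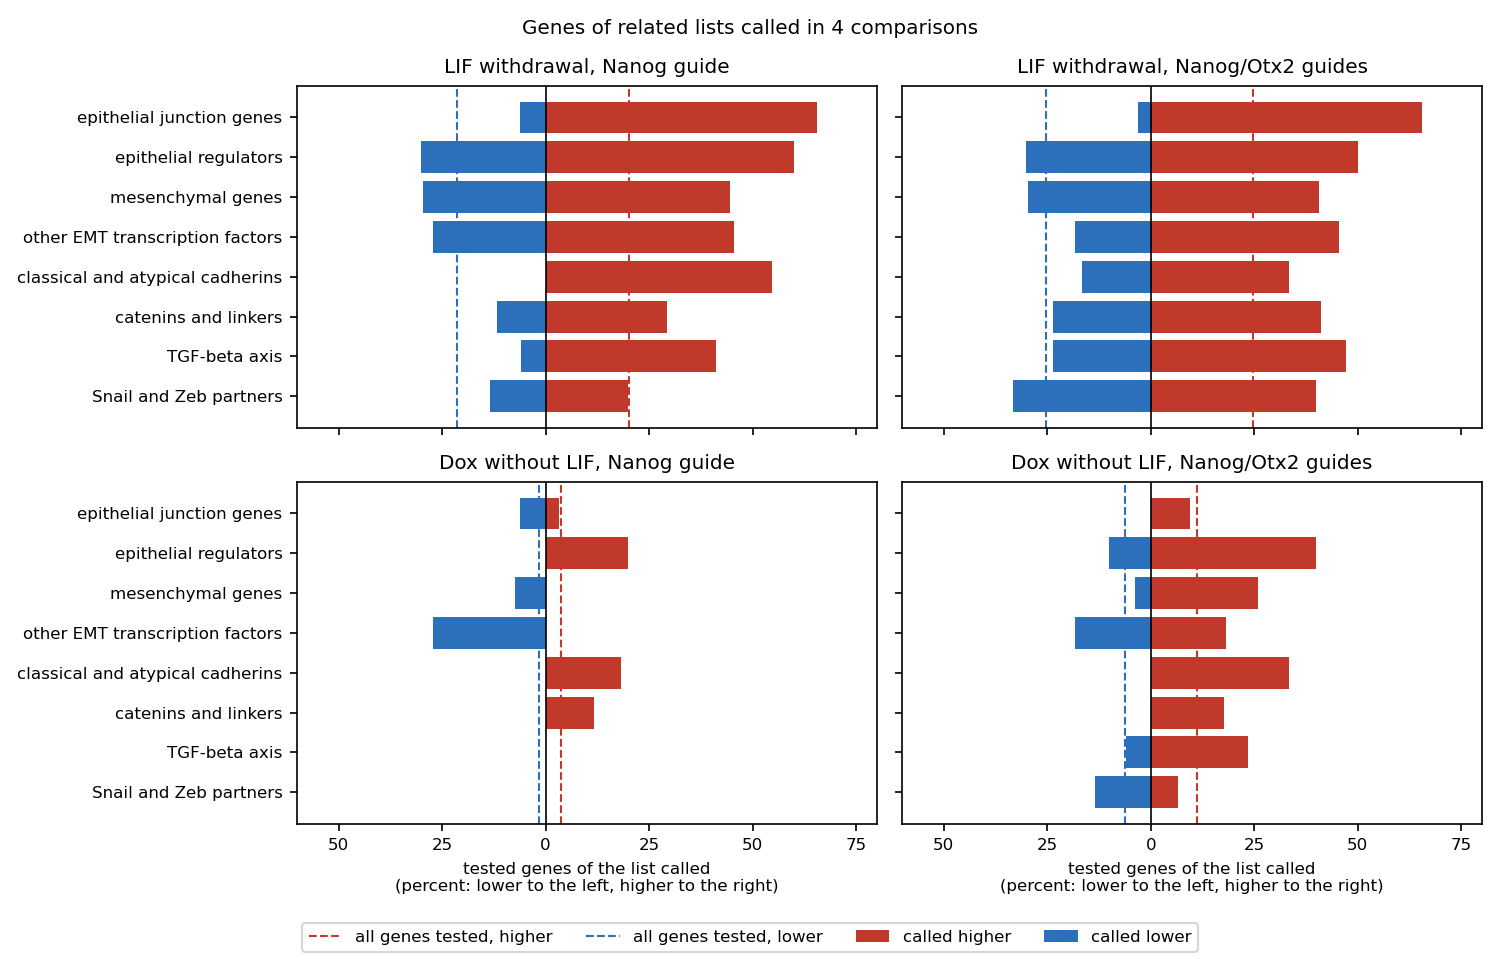
Share of the tested genes of 8 lists called higher (red, to the right) or lower (blue, to the left) in 4 comparisons (edgeR adjusted p under 0.05); dashed lines give the share of all genes tested. The bar of epithelial junction genes reaches 21 of 32 genes on LIF withdrawal in both lines, and with Dox in the absence of LIF it covers 1 gene higher and 2 lower in Nanog cells and 3 higher in Nanog/Otx2 cells.

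With Dox in the absence of LIF, when 5.14% and 17.3% of all genes were called, fewer genes of the lists were called. Of 32 epithelial junction genes 1 was higher and 2 lower in Nanog cells and 3 higher and 0 lower in Nanog/Otx2 cells, and P-cadherin (Cdh3), which had risen on LIF withdrawal in Nanog cells, rose further (1.62 ± 0.19, edgeR adjusted p = 0.00068, and 1.53 ± 0.24, edgeR adjusted p = 0.00057). The regulator Klf5 rose (2.71 ± 0.20 and 2.79 ± 0.16). Of 27 mesenchymal genes 0 were higher and 2 lower in Nanog cells, Nes (-1.80 ± 0.34) and Ctgf (-1.45 ± 0.26), whereas 7 were higher and 1 lower in Nanog/Otx2 cells, where smooth muscle actin (Acta2, 1.32 ± 0.24) and S100a6 (1.30 ± 0.24) rose and Ctgf fell (-1.17 ± 0.14). Whether these counts differ between the lines was not tested. Id1 (-1.55 ± 0.39 and -1.28 ± 0.34) and Id2 (-1.10 ± 0.27 and -1.28 ± 0.28) were lower in both, and the cadherin partners Lima1 (1.17 ± 0.16 and 1.40 ± 0.23) and Ctnna1 (0.67 ± 0.12 and 0.58 ± 0.08) higher. In the TGF-beta axis 0 of 17 genes were called in Nanog cells and 4 were higher and 1 lower in Nanog/Otx2 cells, led by Tgfb1 (2.55 ± 0.35).

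Markers of cell states moved beside the 9 genes. The summed level of 10 naive markers was 63970 to 72978 normalised counts in Nanog cells with LIF alone, 2706 to 4147 without LIF and 24243 to 27054 without LIF and with Dox. Of these markers 9 of 10 were called lower on LIF withdrawal (21.3% of all genes tested) and 9 of 10 higher with Dox (3.6% of all genes tested). The sum of 7 formative markers was 7327 to 10987 with LIF alone, 83536 to 102538 without LIF and 43636 to 50135 with Dox. Nanog/Otx2 cells had 66849 to 80418, 3033 to 4296 and 16226 to 23591 of the naive and 9393 to 15894, 98820 to 119578 and 69198 to 77671 of the formative markers. The formative sum was led by Dnmt3b, the gene most like Cdh1 above, at means of 3990, 68023 and 31037 in these conditions of Nanog cells. With LIF alone 2 of the 7 formative markers had means under 10 in Nanog cells. Otx2, whose promoter was targeted in Nanog/Otx2 cells, is among the 7. In these 3 conditions the naive list had the order of Zeb1 and the formative list that of Cdh1, and the part of the change of cell state in the change of the 9 genes was not tested.

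Of other cell types, the 8 fibroblast markers summed to 147 to 522 normalised counts in Nanog cells with LIF alone and 374 to 477 without LIF, with Lum and Postn at 0 in every one of these libraries and Thy1 the highest. They summed in Nanog/Otx2 cells to 211 to 366 and 383 to 581, with Lum at 0. Endoderm markers, led by the matrix gene Sparc that mesenchymal cells also express, summed to 8788 to 12325 with LIF alone and 5205 to 5630.1 without it in Nanog cells (0 of 7 higher, 6 lower), and to 7106 to 10420.3 and 4299 to 6311 in Nanog/Otx2 cells (1 of 8 higher, 2 lower). Streak and mesoderm markers, led by Eomes, summed to 268 to 377 and 535 to 704 in Nanog cells (2 of 6 higher, 2 lower) and to 182 to 287 and 282 to 403 in Nanog/Otx2 cells (2 of 5 higher, 1 lower). Neural markers (1 of 4 higher, 1 lower, and 1 of 3 higher, 1 lower) and trophoblast markers (the same counts in each line) were called in both directions, and fibroblast markers were called higher only, in 3 of 5 and 4 of 5. The fibroblast sums of Nanog cells overlapped between the conditions. Over all genes tested, 20.2% were called higher and 21.3% lower in Nanog cells, and 24.6% and 25.2% in Nanog/Otx2 cells. The part of these cell types in the levels of Vim, Cdh2 and Twist1 was not tested.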

How the data were processed

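RNA was extracted with TRIzol, and stranded polyA libraries were sequenced single-end on an Illumina instrument. Per the labels, the submitters' processing notes name CASAVA 1.8, STAR, RSEM, DESeq2 and the build mm9. The estimated counts per gene are as the authors deposited them (RSEM, all replicates kept separate), and the normalised counts (a signal with no fixed total) were deposited by the authors after division by DESeq2 size factors. 3 libraries of Tg2a cells in another medium were not analysed here.

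Estimated counts were rounded and fitted with edgeR 4.0.16 (R 4.3.3, TMM scaling, quasi-likelihood test) for Nanog cells, Nanog/Otx2 cells, both, 44iN cells, and long-term 44iN with Tg2a cells, each with all of its conditions in 1 model. A gene was tested if 1 or more conditions of the model had no library under 10 normalised counts. P-values were adjusted by Benjamini-Hochberg over all genes tested, with a threshold of 0.05, and log2 fold changes carry their SE. Scripts were tested on simulated data. Exon lengths come from gencode vM1. Correlations used log2(normalised count + 1), and the 3 genes most like each member were found; the likeness of Snai1 is not reported here. Of each gene list, the text could name the 3 called genes of largest change whose groups were separate and whose higher mean reached 100 normalised counts. The members and lists were chosen with earlier results of these data known.

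Libraries of the same clone come from the same clonal line, which pairs them across conditions. Deviations from the condition means correlated within a block with a mean r of 0.148 (-0.0581 to 0.409, 22 pairs) in Nanog cells, where the block was the clone, and of 0.299 (0.131 to 0.55, 21 pairs) in Nanog/Otx2 cells, where it was clone and number (0.306, 0.118 to 0.55, with the numbers of the column names). No 2 libraries were identical. Alternatives were DESeq2 1.42.0, its size factors, no filter, the block, the libraries compared alone and each library left out. The sum of both Zeb1 identifiers, the clone alone or the numbers of the column names in the block of Nanog/Otx2 cells and the left-out libraries for the Cdh2 to Cdh1 ratio were chosen after seeing the data.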

Additional observations from a re-analysis of the deposited data

Results flagged for a closer look

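Of the 27 groups of 4 libraries examined, 3 held 1 library far from the other 3. Chance gives this in about 1 in 20 independent groups. The 27 groups are the 9 genes read in the same libraries and are not independent, so the count cannot be set against that rate. Both Cdh1 (17418 normalised counts, the others 13536 to 14123) and Epcam (5016, the others 3681 to 3902) were high in library C1-1 of Nanog/Otx2 cells without LIF and with Dox, which also had the lowest Zeb1 of its group (43.8). Snai1 was low, at 20.6, in library C2-1 of Nanog/Otx2 cells with LIF and Dox, the others being at 33.2 to 35.6.

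Of the 27 interactions examined, 4 were called. In each line, 9 compared the Dox effect without LIF with that in LIF. The remaining 9 compared the Dox effect without LIF between the lines. Over all genes tested, 1.93% were called in Nanog cells, 9.7% in Nanog/Otx2 cells and 0.0308% between the lines. The 4 called were Zeb1 in Nanog cells (2.14 on the log2 scale) and Zeb1 (1.77), Vim (0.99) and Snai2 (-1.84) in Nanog/Otx2 cells. Snai2 passed the filter on low counts in Nanog/Otx2 cells only through the libraries with LIF and Dox, which are part of its contrast. All 4 calls set the Dox effect without LIF against that with LIF, and none of them held in every alternative fit. Their tests and the libraries on which they rest are given with the interaction above.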

How the results depend on the processing

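Of 31 called values of the 9 genes over 651 alternatives, 585 kept their direction and side of the threshold, 66 were no longer called and 0 changed direction. Of 95 values not called over 1855 alternatives, 1727 stayed so with the same sign, 46 became called and 82 changed sign. The cause was not tested in any of the cases below.

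Members called with Dox and without LIF numbered 3 in Nanog cells when only the libraries compared were fitted. That fit called 1951 genes in all. In Nanog/Otx2 cells they numbered 5 with the replicate block, with either set of numbers, when 5215 or 5398 of 15609 genes were called. They numbered 4 with the clone alone as a block (4690 genes) and 1 to 2 with single libraries left out (1756 to 3007 genes). With LIF and Dox in Nanog/Otx2 cells they numbered 4 with each block, when 5831 to 6519 genes were called. They numbered 1 without a filter on low counts (2936 genes) and 0 to 3 with single libraries left out (1962 to 4036 genes). For the interaction in these cells, 1187 genes in all were called without a filter. The interaction gave 1 member without a filter and 0 to 3 with libraries left out in Nanog/Otx2 cells, and 0 to 1 in Nanog cells. Cells without LIF and with Dox against LIF alone gave 2 to 5 in Nanog cells with libraries left out. Between the lines there were 3 with the replicate block and 0 to 3 with libraries left out. That block called 7981 of the 16210 genes tested between the lines. In 44iN cells the shared replicate number, a number only, gave 1 called member as a block (r of 0.492 within numbers, 2 pairs), against 13.3% of all genes tested. With the clone alone as a block Twist1 was called for the interaction in Nanog/Otx2 cells (-0.97, edgeR adjusted p = 0.049). With the numbers of the column names in the block 2 calls of Zeb2 were lost, as given beside the results, and the blocks changed no other call of a member than this and those given beside the results. Of the 27 genes found as most like a member, 7 were again found by Spearman's rho.

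The following small values changed sign. Zeb1 with LIF and Dox in Nanog/Otx2 cells was -0.037 with the replicate block, -0.0068 with the clone alone, -0.015 with both identifiers summed and -0.027 to 0.27 with libraries left out, and in Nanog cells -0.29 to 0.038. Its difference between the lines was -0.42 to 0.036 with libraries left out. Zeb2 on LIF withdrawal in Nanog cells was -0.051 with the block and -0.28 to 0.88 with libraries left out, Snai1 in Nanog/Otx2 cells -0.048 to 0.17, and Cdh2 with Dox and without LIF in Nanog/Otx2 cells -0.24 to 0.048.

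Counts over all genes moved more. With Dox and without LIF, 803 genes in Nanog cells became 1509 with DESeq2, 1375 with the block and 1951 with the libraries compared alone (277 to 1617 with libraries left out), and 2702 in Nanog/Otx2 cells became 5215 with the block and 4690 with the clone alone (1756 to 3007). With LIF and Dox, 88 in Nanog cells became 587 with DESeq2, 151 without a filter, 293 with the block and 0 with the libraries compared alone (3 to 142 with libraries left out), and 3577 in Nanog/Otx2 cells became 6401 and 5831 with the blocks (1962 to 4036). For the interaction 302 became 877 with DESeq2 and 709 with the block (81 to 481), and 1514 became 3407 and 2887 with the blocks (870 to 1847). With the column numbers the block gave 5398, 6519 and 3331 in these Nanog/Otx2 comparisons. Cells without LIF and with Dox against LIF alone gave 4386 in Nanog cells (2648 to 6744). The difference between the lines went from 5 to 41 with DESeq2 and 8 with the block (0 to 8). In 44iN cells 0 became 141 with DESeq2, 434 without a filter, 1912 with the block and 61 to 3413 without each library in turn, and long-term 44iN against Tg2a cells went from 1286 to 2294 with DESeq2 and to 19 to 2618 with libraries left out, so that the background shares of both comparisons rest on single libraries. No paired analysis was possible there because the numbers do not link the cell lines.

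The effect of depth on the calls of the factors with low counts, Snai1 and Snai2, was not tested.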
